A study of Mus musculus with 6 samples.

Results

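The genes described here encode the handling of fatty acids: their uptake and storage, their synthesis, their activation to acyl-CoA, and their mitochondrial oxidation with transfer of the electrons to the respiratory chain. They were chosen by symbol, 39 in number, and all 39 were found by Ensembl identifier among the 57180 rows of the table. RNA was measured in 6 libraries of wild-type mouse bone marrow-derived macrophages, primary precursors of the cells that resorb bone, after 5 days under osteoclast-inducing conditions. The 3 control libraries received no Visomitin and the 3 Visomitin libraries did. Visomitin, or SkQ1, is a plastoquinone antioxidant carried into mitochondria by a linked cation, and the labels state neither its dose nor a vehicle. Nothing in the labels says whether the libraries of a group came from separate mice or cultures, so each p-value reflects variation among these libraries alone, and that variation may be technical. Levels are in TPM, each gene's share of a library's transcripts after scaling for length, so levels can be compared between genes. They keep no sequencing depth, which is therefore unknown.

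Fatty acids reach a macrophage from lipoprotein triglyceride cut by lipoprotein lipase, or through membrane receptors, and are carried in the cytosol by binding proteins, stored as triglyceride in lipid droplets and released from them by lipases. In synthesis, acetyl-CoA is carboxylated, joined into palmitate, then elongated and desaturated. In β-oxidation, acyl-CoA enters mitochondria through the carnitine shuttle and is shortened by dehydrogenases matched to chain length. Their electrons pass through the electron transfer flavoprotein and its dehydrogenase to ubiquinone. Osteoclasts are cells rich in mitochondria and can use fatty acids as fuel.

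With Visomitin, 4 of the 38 members that were abundant enough to test fell and 0 rose: Lpl, Elovl1, Acads and Etfdh. They come from uptake, synthesis, oxidation and electron transfer, 1 each, and fell 1.32-fold to 1.61-fold. All folds and differences are Visomitin against control of log2(TPM + 1), where the added 1 shrinks the differences of weakly expressed genes. The test was limma across the 11753 genes that reached 1 TPM in 3 or more libraries, with Benjamini-Hochberg adjustment at 0.05. Over all genes tested, 5.03% fell, 2.08% rose and 7.10% changed in either direction. Without control 1, 0 of the 38 members passed, 1 fell when Visomitin 2 was left out, 2 when control 2, control 3 or Visomitin 3 was, and 5 when Visomitin 1 was. With every detected gene tested 0 members fell, without the variance trend 1 (Lpl), and with array weights, by which less typical libraries count less, 11 fell and 3 rose. Calls over all genes shifted in these fits as well. With array weights 1572 of the 11753 genes fell and 1263 rose. Of all genes, 309 passed without control 1 and 981 without Visomitin 1, against 835 in the main fit. The remaining member, Dgat2, was not tested, at 0.34 to 1.03 TPM in the 6 libraries.

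Most members had values below 0 whether or not they passed. Of the 38, 29 were below 0 and 9 above, where 55.7% of all tested genes were below 0. The median log2 fold change was -0.17 for the members and -0.03 for all genes. After median-ratio scaling these were -0.13 and 0.00, and after quantile normalization -0.12 and 0.02. The ranges of the groups did not overlap for 18 members. Visomitin was the lower group for 15 of the 38 tested (39.5%), against 18.4% of all genes, and the higher group for 3 (7.89%), against 11.9% of all genes. Those 3 were Fads1, Acadl and Hadh. The 15 include Fads2, which met the filter of 1 TPM in every control but, with Visomitin, only in Visomitin 3. Its entry was thus conditioned on the group where it is high. Visomitin 1 stood apart from the other Visomitin libraries on the second principal component of all genes (25.1, against -17.2 and -16.8), and it was the lowest Visomitin library for 24 of 38 members, or 63.2%, and for 63.9% of all genes. Without it the median of the members was -0.12, and 27 were below 0.

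**Figure D1:**
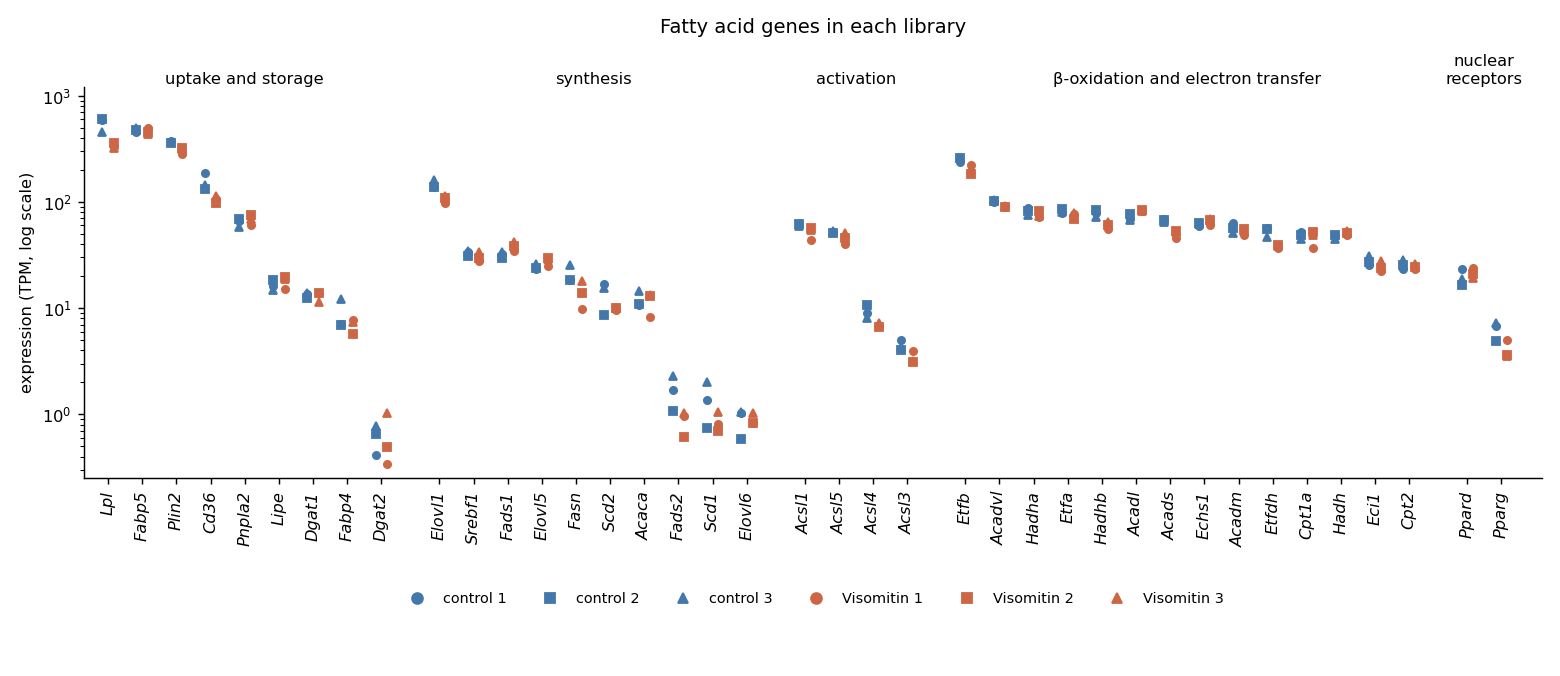
Expression of the 39 genes in TPM on a log axis, ordered within each role by the control mean. Each symbol is 1 library (circle, square and triangle for libraries 1, 2 and 3; blue for control, orange for Visomitin); Lpl, Fabp5 and Plin2 lie above the other genes in every library, and Dgat2, Elovl6, Scd1 and Fads2 at 2.29 TPM or below.

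Genes of osteoclasts moved with the groups. All 10 osteoclast markers examined fell (median log2 fold change -2.04), and their summed level was 11171 to 12121 TPM in control and 2938 to 3531 TPM with Visomitin. Of 8 macrophage markers, 2 rose (Mrc1 and Mertk) and 0 fell, with summed levels of 4164 to 4404 and 3755 to 4930 TPM. Fewer osteoclasts and less RNA per osteoclast cannot be told apart in bulk RNA, for every gene described here. Of 8 adipocyte markers, 7 were listed at 0 in all libraries and Adipoq reached 0.42 TPM at most. Of 10 stromal markers 6 were tested and 0 passed, and their summed level varied from 110 TPM in control 2 to 333 TPM in control 3, and from 80.7 to 167 TPM with Visomitin. Of 8 lymphoid markers, 5 were at 0 in all libraries and none reached 1 TPM in any. Neutrophil markers summed to 8.82 to 19.5 TPM, with 6 of 8 at 0 in all libraries, and endothelial markers to 0.90 to 2.24 TPM. The part of these cells in the differences below was not tested.

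Promoters were read from RefSeq (GRCm38.p6, 250 bases before to 50 bases after the start), where 31 of the 39 genes had an entry, with 38 starts in all. Of these genes, 3 are printed because the results turn on them: Etfdh and Elovl1 fell, and Hadhb shares part of its promoter with Hadha, the other subunit of the same enzyme, to which its level is compared further on. Capitals mark matches on either strand to 3 motifs. These are GCGC, any base, TGCGC (NRF1, a factor of nuclear genes for respiration), TTCNNNGAA (the STAT element, searched because the study's title names STAT3) and CCAAT.
Etfdh, chr3:79628718-79629017, minus strand: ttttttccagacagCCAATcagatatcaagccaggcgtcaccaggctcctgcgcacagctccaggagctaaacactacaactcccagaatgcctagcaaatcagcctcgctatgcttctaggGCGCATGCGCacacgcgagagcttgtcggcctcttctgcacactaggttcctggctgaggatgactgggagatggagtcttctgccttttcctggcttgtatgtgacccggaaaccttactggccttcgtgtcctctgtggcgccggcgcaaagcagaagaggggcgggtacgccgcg
Elovl1, chr4:118427843-118428142, plus strand: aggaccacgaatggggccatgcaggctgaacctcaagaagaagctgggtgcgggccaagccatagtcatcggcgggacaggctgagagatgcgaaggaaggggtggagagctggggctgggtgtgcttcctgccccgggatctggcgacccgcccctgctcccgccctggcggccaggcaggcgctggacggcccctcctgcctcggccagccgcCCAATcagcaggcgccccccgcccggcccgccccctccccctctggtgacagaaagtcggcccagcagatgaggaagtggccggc
Hadhb, chr5:30155003-30155302, plus strand: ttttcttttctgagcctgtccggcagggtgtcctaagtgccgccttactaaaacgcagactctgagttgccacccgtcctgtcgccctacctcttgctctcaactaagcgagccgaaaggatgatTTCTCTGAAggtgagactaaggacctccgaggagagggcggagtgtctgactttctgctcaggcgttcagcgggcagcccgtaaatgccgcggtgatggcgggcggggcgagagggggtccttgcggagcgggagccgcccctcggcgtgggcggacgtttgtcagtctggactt
The Etfdh promoter held the NRF1 motif as GCGCATGCGC, beginning 128 bases before the start, as well as a CCAAT motif. The Elovl1 window, at the more upstream of its listed starts, held CCAAT beginning 35 bases before the start. The window at the other listed start of Elovl1 held none of the motifs searched. Hadha and Hadhb are read in opposite directions from starts 273 bases apart, so their windows share 228 bases, and the TTCTCTGAA match lies in the shared stretch. The window of Acads, the other gene that fell and had an entry, held none of the motifs searched.

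Over the 38 member starts, the NRF1 motif was found in 3 (Etfb, Etfdh and Fasn), or 7.89%, against 4.603% of 32851 promoters of the same length. The STAT element was found in 4 (Cpt2, Hadha, Hadhb and Lipe), or 10.5%, against 8.30%. The Hadha and Hadhb matches are the same site in their shared stretch, so the 10.5% counts it for both starts. CCAAT was found in 18, or 47.4%, against 37.4%. The E-box CACGTG was found in Elovl5, Lipe and Plin2 (7.89% of member starts, 7.15% of all), and TCACNCCAC, a sterol response element, in Acsl1 (2.63% and 1.24%). The estrogen-related receptor motif TCAAGGTCA was found in 0 member starts and 0.42% of all. The PPAR response element, searched as AGGTCA repeated after any base, was found in 0 member starts and 0.04% of all. A match is a stretch of letters and not evidence of binding.

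Uptake and storage genes had the highest summed level of the roles, and the secreted lipase Lpl fell. In control, Lpl made up 33.3% of that sum, Fabp5 28.8%, Plin2 22.2% and Cd36 9.39%. Of 8 tested members 1 fell (12.5%, against 5.03% of all genes) and 0 rose. The median log2 fold change was -0.15 (-0.02 without control 3). Lpl encodes lipoprotein lipase, the secreted enzyme that frees fatty acids from lipoprotein triglyceride. It was at 587, 601 and 460.1 TPM in control 1 to 3 and at 331, 360.2 and 323 TPM in Visomitin 1 to 3. Every Visomitin library lay below every control, and control 3 was the lowest control. The means were 549 ± 77.6 and 338 ± 19.4 TPM (SD, n = 3), a log2 fold change of -0.69 (SE 0.11; limma adjusted p = 0.010; exact two-sided permutation p = 0.1, the smallest that 3 against 3 libraries allow). The call was lost without control 1 (adjusted p = 0.057) and with every detected gene tested (0.053), and the range over all alternatives was -0.81 to -0.62.

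Cd36, a scavenger receptor that takes up long-chain fatty acids and oxidized lipoproteins, was at 189, 133 and 143 TPM in control and 108, 98.6 and 113 TPM with Visomitin. The groups did not overlap, and control 1 was well above the other controls. The log2 fold change of -0.52 (SE 0.13, 95% confidence interval -0.83 to -0.22) missed the threshold (limma adjusted p = 0.053). It passed when only genes averaging 5 TPM or more were tested (0.046) and with array weights (0.011), and was -0.37 without control 1 (adjusted p = 0.12).

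Plin2, the main lipid droplet coat protein of macrophages, was at 371, 363 and 368 TPM in control and 284, 319 and 317 TPM with Visomitin. The controls were close to each other and all above the Visomitin libraries, yet the difference did not pass (-0.26, SE 0.08, limma adjusted p = 0.081; 0.049 without Visomitin 1). Fabp5, a cytosolic fatty acid carrier, was at 455, 476 and 496 TPM in control and 500.0, 454 and 432 TPM with Visomitin. The groups overlapped, and the interval of the log2 difference ran from -0.23 to 0.14, with a sign that turned after quantile normalization. Fabp4, the related carrier of adipocytes and macrophages, was far below Fabp5, at 5.65 to 12.3 TPM, and its highest value was in control 3.

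Pnpla2 and Lipe, the member lipases that act inside the cell, did not pass and had values above 0. Pnpla2, which encodes the lipase that opens triglyceride breakdown, was at 64.2 ± 5.89 and 68.1 ± 7.48 TPM (log2 interval -0.17 to 0.34). Lipe, the hormone-sensitive lipase, was at 16.4 ± 1.81 and 17.9 ± 2.48 TPM (-0.19 to 0.42). Dgat1, an enzyme of the last step of triglyceride synthesis, was at 13.3 ± 0.76 and 13.1 ± 1.44 TPM, above its counterpart Dgat2 in every library. Its difference of -0.03 turned sign after median-ratio scaling or quantile normalization.

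**Figure D2:**
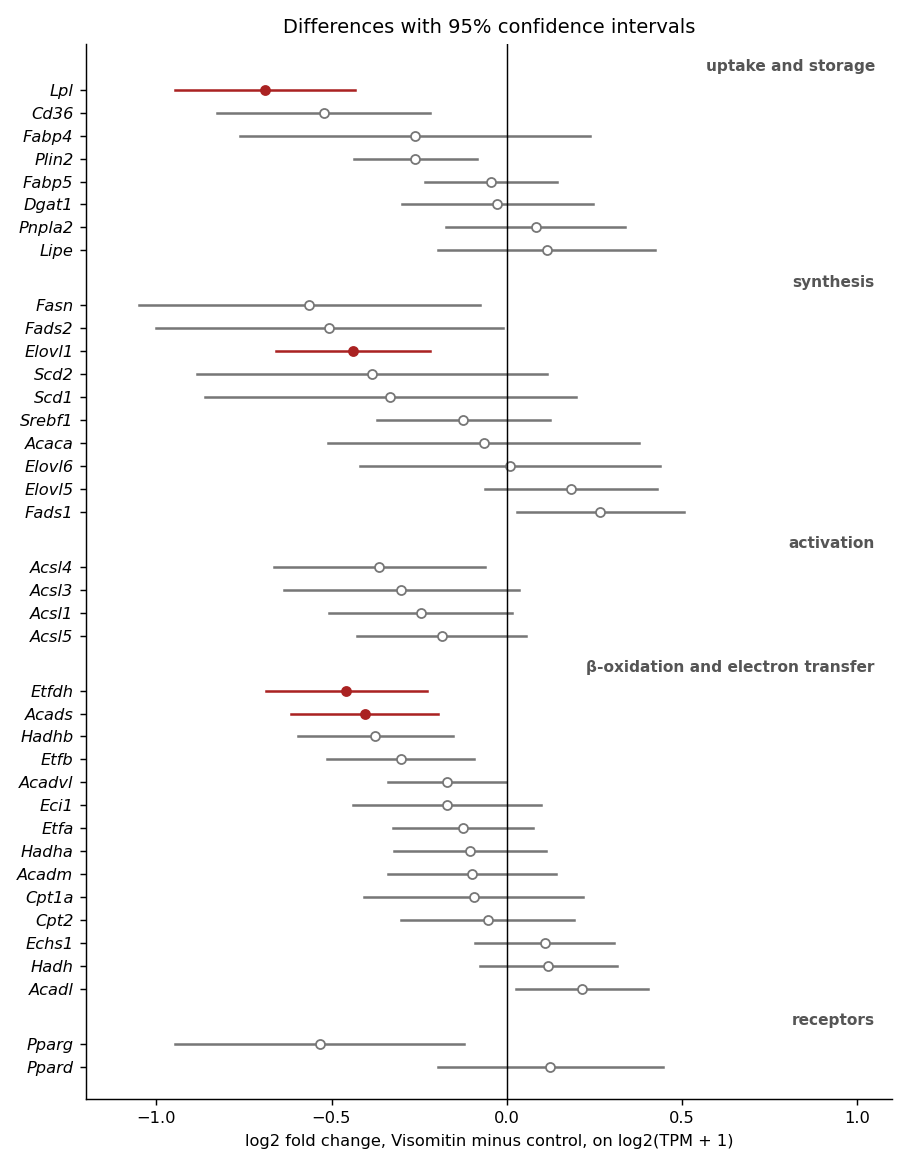
Log2 fold change (Visomitin minus control) of the 38 tested genes with its 95% confidence interval, grouped by role. Filled red points (Lpl -0.69, Etfdh -0.46, Elovl1 -0.44, Acads -0.41) passed limma at an adjusted p of 0.05 and open points did not; the vertical line marks no difference.

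Among the synthesis genes the elongase Elovl1 fell, and Acaca and Fasn were at 25.24 TPM or below in every library. Of 10 tested members 1 fell (10%, against 5.03% of all genes) and 0 rose. The median was -0.23 (-0.12 without control 3, with a pseudocount of 5 or with a filter of 5 TPM on the mean). Elovl1 extends saturated and monounsaturated acyl chains to the very long lengths found in sphingolipids. It was at 138, 139 and 160.4 TPM in control and 98.3, 109 and 114 TPM with Visomitin, so the groups did not overlap. The difference was -0.44 (SE 0.10; limma adjusted p = 0.032; exact permutation p = 0.1). It was lost without control 1 (0.083), control 2 (0.071), control 3 (0.11) or Visomitin 2 (0.096), with no filter (0.077) and without the trend (0.068). The log2 value stayed between -0.49 and -0.37. Elovl1 made up 51.1% of the summed TPM of the synthesis genes in control and 88.7% of the drop in that sum. Exons of Cdc20, at a mean of 90.8 TPM, overlap 1.94% of its exon bases on the opposite strand.

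Fasn, the synthase that builds palmitate, was at 18.4, 18.4 and 25.2 TPM in control and 9.79, 13.9 and 17.9 TPM with Visomitin. The groups were separate by a small margin and Visomitin 1 was the lowest, and the difference did not pass (-0.56, interval -1.05 to -0.08, limma adjusted p = 0.15; -0.35 with an adjusted p of 0.26 without Visomitin 1). Acaca, the acetyl-CoA carboxylase that supplies its substrate, was at 12.01 ± 2.07 and 11.6 ± 2.85 TPM, with an interval of -0.51 to 0.38. Its value was -0.07 in the main comparison and 0.14 without Visomitin 1, and 31.7% of the 31-base words in its transcripts occur in the pseudogene Gm5182, at a mean of 0.13 TPM. Srebf1, the transcription factor that drives lipogenic genes, was at 33.0 ± 2.06 and 30.2 ± 3.22 TPM and did not pass (interval -0.37 to 0.12).

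The desaturases showed differing levels. Scd2 was the more abundant of the stearoyl-CoA desaturase genes, which make monounsaturated fatty acids, at 7.68 to 14.6 times the TPM of Scd1 in the same library. Scd2 was at 16.8, 8.63 and 15.6 TPM in control and 9.54, 10.1 and 9.93 TPM with Visomitin. Control 2 lay below every Visomitin library for this gene. The difference of -0.38 did not pass (interval -0.88 to 0.11, limma adjusted p = 0.33), but did without control 2 (-0.66, 0.038). Scd1 was at 0.69 to 2.03 TPM.

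Fads1 and Fads2, the desaturases of polyunsaturated fatty acid synthesis, lay on opposite sides of 0. Fads1 was at 32.2, 29.7 and 33.4 TPM in control and 34.7, 38.5 and 42.3 TPM with Visomitin, with no overlap and every Visomitin library higher. It did not pass (0.27, interval 0.03 to 0.51, limma adjusted p = 0.16) but did after median-ratio scaling (0.042) and quantile normalization (0.036). Fads2 was at 1.71, 1.08 and 2.29 TPM and at 0.97, 0.61 and 1.04 TPM (-0.51, adjusted p = 0.20). Every control met the filter of 1 TPM for Fads2, but of the Visomitin libraries only Visomitin 3 did. Elovl5, the elongase of the same pathway, was at 24.5 ± 1.596 and 28.0 ± 2.64 TPM (0.18, interval -0.06 to 0.43), and Elovl6, which elongates palmitate, at 0.58 to 1.06 TPM.

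The acyl-CoA synthetases, which activate fatty acids for every later use, had 4 of 4 values below 0 and 0 that passed. Of all tested genes 55.7% were below 0. Acsl1 was the most abundant at 61.1 ± 1.59 and 51.7 ± 7.30 TPM, close to Acsl5 at 51.8 ± 1.16 and 45.7 ± 5.59 TPM. Acsl4, which prefers arachidonic acid, was at 9.21 ± 1.32 and 6.90 ± 0.27 TPM (-0.36, interval -0.67 to -0.06, limma adjusted p = 0.14). Acsl3, found on nascent lipid droplets, was at 4.43 ± 0.51 and 3.41 ± 0.43 TPM. The ranges of Acsl1, Acsl3 and Acsl4 did not overlap between groups, with Visomitin lower, which held for 18.4% of all genes.

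In β-oxidation and electron transfer 2 of 14 members fell (14.3%, against 5.03% of all genes) and 0 rose, and the median was -0.12. Acads encodes the dehydrogenase for short chains. It was at 68.8, 67.4 and 64.1 TPM in control and 45.6, 53.3 and 51.9 TPM with Visomitin. All Visomitin libraries were below all controls (-0.41, SE 0.09, limma adjusted p = 0.036; exact permutation p = 0.1). Etfdh encodes the iron-sulfur flavoprotein that hands electrons from the electron transfer flavoprotein to ubiquinone. It was at 56.8, 55.3 and 46.9 TPM in control and 36.7, 39.4 and 38.4 TPM with Visomitin, again without overlap (-0.46, SE 0.10, limma adjusted p = 0.033; exact permutation p = 0.1).

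These calls lay near the threshold. Acads kept its call without Visomitin 1 (0.034) and lost it without each other library (0.062 to 0.13). Etfdh kept its call without control 3 (0.035) and lost it without each other library (0.052 to 0.12). Both were lost with no filter (0.066 and 0.068) and without the trend (0.068 and 0.059). Over all alternatives the log2 values were -0.45 to -0.34 for Acads and -0.54 to -0.41 for Etfdh.

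**Figure D3:**
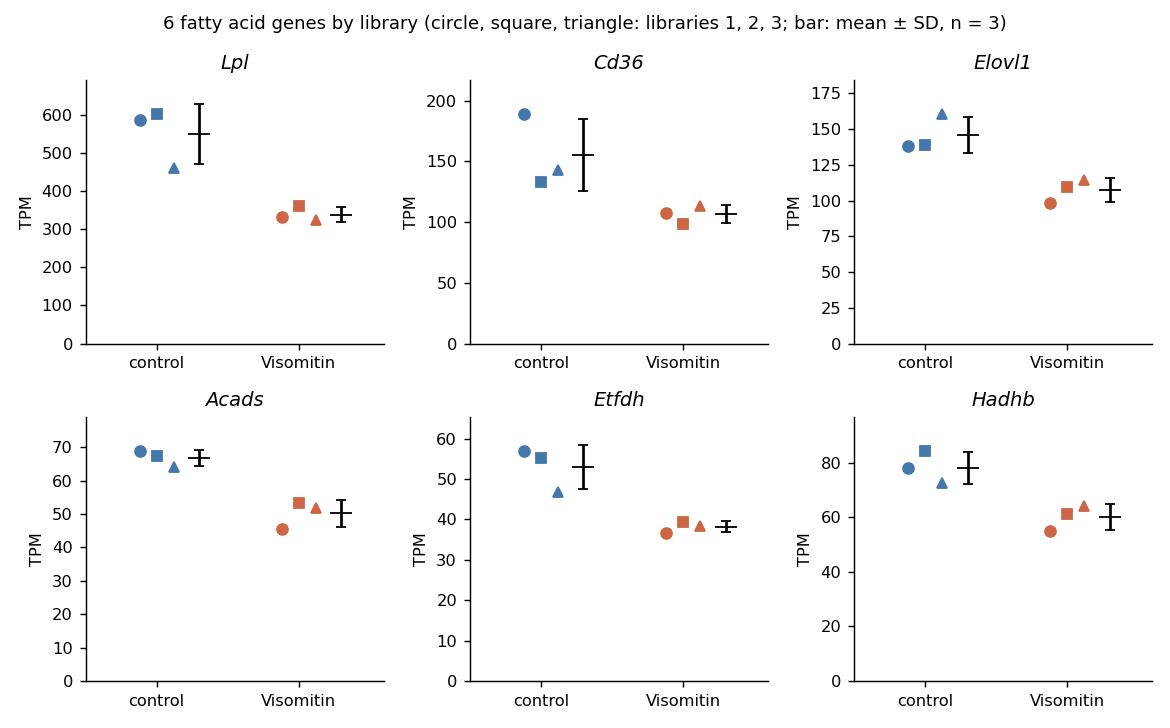
TPM by library (linear axes from 0) for Lpl, Cd36, Elovl1, Acads, Etfdh and Hadhb, with circles, squares and triangles for libraries 1, 2 and 3 and a bar for the mean ± SD (n = 3). The control and Visomitin libraries do not overlap in any of the 6 panels; Cd36 (adjusted p = 0.053) and Hadhb (0.055) missed the threshold that the other 4 genes passed.

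The other dehydrogenases were arranged by chain length as follows. Acadvl, for very long chains, was at 102 ± 2.32 and 90.04 ± 0.99 TPM, without overlap (-0.17, interval -0.34 to -0.0036, limma adjusted p = 0.20). On the opposite strand, exons of Dvl2 overlap 42.9% of its exon bases in the GENCODE annotation, and no source used here says whether counting used strand. Acadl, for long chains, was at 69.3, 76.7 and 68.2 TPM in control and 82.7, 83.7 and 82.2 TPM with Visomitin. Every Visomitin library was higher, and the difference did not pass (0.21, interval 0.03 to 0.40, limma adjusted p = 0.16). Acadm, for medium chains, was at 56.7 ± 6.15 and 52.8 ± 3.27 TPM (interval -0.34 to 0.14).

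Cpt1a and Cpt2, the members for entry into mitochondria, showed differences smaller than the spread. Cpt1a, the carnitine palmitoyltransferase of the outer membrane and the controlled step, was at 52.0, 49.3 and 44.7 TPM in control and 36.9, 52.2 and 48.7 TPM with Visomitin. Visomitin 1 alone was low, and without it the log2 difference went from -0.09 to 0.05. Cpt2, the inner membrane enzyme, was at 25.8 ± 2.70 and 24.7 ± 1.36 TPM (interval -0.30 to 0.19; 0.00 after quantile normalization).

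Neither subunit of the trifunctional protein, which runs the later steps for long chains, passed. Hadhb, the subunit with the thiolase, was at 78.2, 84.2 and 72.4 TPM in control and 55.1, 61.1 and 64.2 TPM with Visomitin. The groups did not overlap and the difference just missed the threshold (-0.38, SE 0.10, limma adjusted p = 0.055). It passed after median-ratio scaling (0.036), quantile normalization (0.044) and with array weights (0.0073). Hadha, the subunit with the hydratase and dehydrogenase, was at 82.1 ± 6.16 and 76.3 ± 5.47 TPM with overlapping ranges (interval -0.32 to 0.11). The ratio of Hadhb to Hadha within a library, which a single scaling factor per library cannot alter, was 0.89, 1.01 and 0.96 in control and 0.76, 0.74 and 0.87 with Visomitin. The exact two-sided permutation test of this ratio gave p = 0.1, the smallest possible, and 0.12 adjusted over the 7 ratios computed, all of which were chosen after values were seen. Of the 31-base words in Hadhb transcripts, 19.5% occur in the pseudogene Gm13910, which was listed at 0 in every library.

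Echs1, Hadh and Eci1, which act in later or auxiliary steps of the cycle, did not pass. Echs1, the short-chain hydratase, was at 61.4 ± 1.96 and 66.3 ± 4.46 TPM (0.11, interval -0.09 to 0.31). Hadh, the dehydrogenase that follows it, was at 47.9, 48.8 and 45.1 TPM and at 48.98, 51.4 and 53.8 TPM (0.12, interval -0.08 to 0.31), and its Visomitin libraries lay narrowly above its controls. Eci1, the isomerase needed for unsaturated fatty acids, was at 27.9 ± 2.72 and 24.7 ± 2.66 TPM (-0.17, interval -0.44 to 0.10).

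The subunits of the electron transfer flavoprotein were lower in every Visomitin library without passing. Etfb was at 236, 258 and 259 TPM in control and 221, 184 and 206 TPM with Visomitin (-0.30, SE 0.09, limma adjusted p = 0.088; 0.040 without Visomitin 1). Its exons share 53.0% of their bases with Gm45233 on the same strand, listed at a mean of 0.04 TPM. Etfa, its partner, was at 79.2, 85.8 and 79.5 TPM and at 77.0, 69.0 and 78.1 TPM (-0.13, adjusted p = 0.42). Relative to Etfa, Etfdh was at 0.72, 0.64 and 0.59 in control and 0.48, 0.57 and 0.49 with Visomitin (exact permutation p = 0.1, adjusted 0.12). Relative to Acadm, Acads was at 1.09, 1.198 and 1.26 and at 0.92, 0.95 and 0.98, while Acadl was at 1.0999, 1.36 and 1.34 and at 1.68, 1.499 and 1.55, each with no overlap and the same p-values. These ratios were chosen after values were seen. Etfdh, Acads and Acadl each separated the groups by themselves, so the separation of the ratios adds no support.

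**Figure D4:**
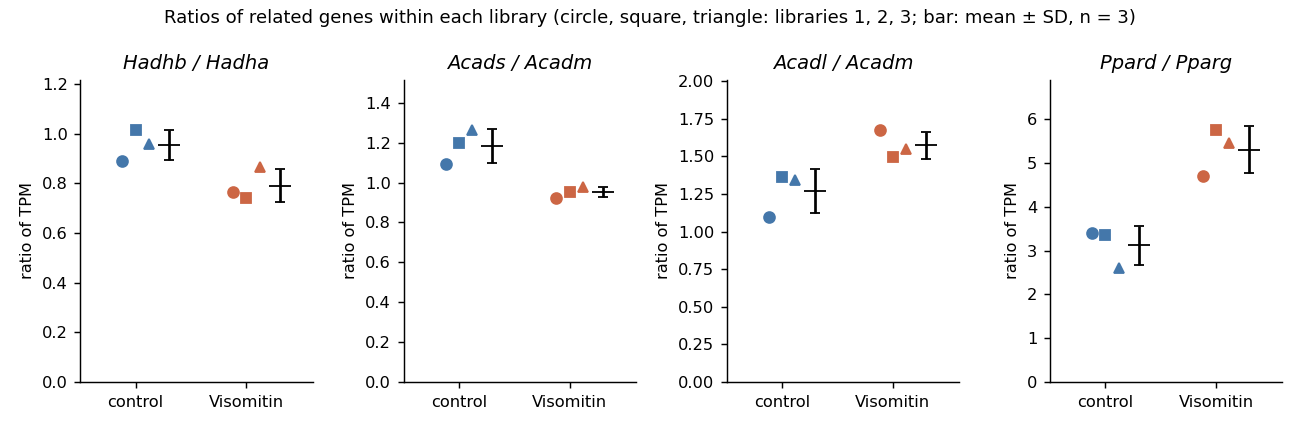
Ratios of TPM between related genes within each library (linear axes from 0), with circles, squares and triangles for libraries 1, 2 and 3 and a bar for the mean ± SD (n = 3). Hadhb to Hadha and Acads to Acadm were lower, and Acadl to Acadm and Ppard to Pparg higher, in all Visomitin libraries than in any control. Each exact permutation p was 0.1, or 0.12 adjusted over 7 ratios. The ratios were chosen after values were seen, so their separation gives no independent support.

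The nuclear receptors that sense fatty acids did not pass. Pparg, the receptor that induces Cd36, Fabp4 and Lpl, was at 6.79, 4.95 and 7.27 TPM in control and 5.02, 3.63 and 3.54 TPM with Visomitin. The groups overlapped, since control 2 lay just below Visomitin 1 (-0.53, SE 0.18, interval -0.95 to -0.12, limma adjusted p = 0.12). Ppard, the more abundant receptor, was at 19.5 ± 3.35 and 21.3 ± 2.18 TPM (0.12, interval -0.20 to 0.45). The ratio of Ppard to Pparg, also chosen after values were seen, was 3.41, 3.35 and 2.60 in control and 4.71, 5.75 and 5.45 with Visomitin.

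Set side by side, the roles differed in summed level. Uptake and storage genes summed to 1705, 1680 and 1567 TPM in control and 1320, 1347 and 1294 TPM with Visomitin, 20.0% lower, of which Lpl made up 63.8%, Plin2 18.3% and Cd36 14.7%. Synthesis genes summed to 278, 263 and 315 TPM and to 216, 246 and 264 TPM, 15.3% lower with ranges that overlapped by a small margin. Activation genes were 14.9% lower. Oxidation and electron transfer genes summed to 1046, 1083 and 1031 TPM and to 922, 939 and 965 TPM, 10.6% lower, and Etfb made up 42.4% of that difference. The median log2 fold change was -0.27 for activation, -0.23 for synthesis, -0.20 for the receptors described above, -0.15 for uptake and storage and -0.12 for oxidation. The order of synthesis, uptake and storage, and oxidation was not kept without control 3 (-0.12, -0.02 and -0.16), without Visomitin 2, without Visomitin 3, with every detected gene tested, or with a filter of 5 TPM on the mean. Differences between roles were not tested.

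Of 134 other fatty acid genes, 108 were tested, 11 fell (10.2%) and 4 rose, with a median of -0.06. Among those that rose, G0s2 reached the filter only through the Visomitin libraries. Over all tested genes 5.03% fell and 2.08% rose, with a median of -0.03. In mitochondrial oxidation a thiolase and an acyl-CoA dehydrogenase fell. Acaa2, the thiolase for medium and long chains, was at 107, 119 and 112 TPM in control and 65.0, 73.2 and 73.2 TPM with Visomitin (-0.67, SE 0.09, limma adjusted p = 0.0037). Acad10, a member of the acyl-CoA dehydrogenase family, was at 17.8, 18.4 and 18.1 TPM and at 6.32, 7.31 and 6.87 TPM (-1.29, SE 0.11, adjusted p = 0.00033). Both passed in all 15 alternatives. Of 25 tested genes in that list, 2 fell (8%, against 5.03% of all genes) and 0 rose. Acad11 (-0.45, adjusted p = 0.064) and Acad9 (-0.36, 0.13) did not.

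In synthesis 5 of 23 other tested genes fell (21.7%, against 5.03% of all genes) and 2 rose, against 2.08% of all genes. Mid1ip1, which promotes polymerization of acetyl-CoA carboxylase, went from 159 ± 7.11 to 111 ± 5.27 TPM (-0.52, limma adjusted p = 0.0078; 0.051 without control 1). Me1, the cytosolic malic enzyme that supplies NADPH, went from 21.7 ± 1.17 to 13.05 ± 1.64 TPM (-0.70, adjusted p = 0.012; 0.051 without control 3). Insig2, which holds the SREBP complex in the endoplasmic reticulum, went from 66.4 ± 7.97 to 43.4 ± 3.71 TPM (-0.60, adjusted p = 0.019; 0.074 without control 1 and 0.055 without control 2). Acss2, which makes acetyl-CoA from acetate, rose from 7.86 ± 0.37 to 12.2 ± 1.74 TPM (0.57, adjusted p = 0.038) and kept its call only without Visomitin 3 among the 6 fits that left out a library. The others that passed, named after their values were seen, were Insig1 and Hsd17b12, which fell, and Hacd4, which rose.

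In storage 1 of 25 other tested genes fell (4%, against 5.03% of all genes). The 1 that rose, G0s2, was tested only because it is high with Visomitin. Its count therefore cannot be weighed against the 2.08% of all genes that rose. G0s2, an inhibitor of the lipase that Pnpla2 encodes, was at 0.11, 0.12 and 0.11 TPM in control and 2.59, 1.71 and 2.63 TPM with Visomitin (1.56, SE 0.19, limma adjusted p = 0.0026). It reached the filter of 1 TPM only through the Visomitin libraries, so the test was conditioned on the group where it is high. With every detected gene tested its adjusted p was 0.0096. Its level stayed below 3 TPM, and the log2 difference ran from 0.51 with a pseudocount of 5 to 3.47 with one of 0.1. Agpat4, an acyltransferase of phosphatidic acid synthesis, went from 75.1 ± 8.30 to 48.3 ± 5.36 TPM (-0.63, adjusted p = 0.018; 0.064 without control 3 and 0.062 without Visomitin 2). Angptl4, a secreted inhibitor of lipoprotein lipase, was at 0.43 to 4.02 TPM and did not pass (-0.98, adjusted p = 0.069), nor did Abhd5, the coactivator of the Pnpla2 lipase (-0.35, 0.075). Angptl4 reached the filter of 1 TPM only through the control libraries, so its test was conditioned on the group where it is high. Gpihbp1, the endothelial protein that binds lipoprotein lipase, was listed at 0 in every library.

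Peroxisomal genes had a median of 0.07, and 12 of 18 were above 0, where 55.7% of all tested genes were below 0. Hacl1, of phytanic acid breakdown, rose from 3.62 ± 0.26 to 6.90 ± 1.12 TPM (0.77, limma adjusted p = 0.020). Its call was kept without Visomitin 1 or Visomitin 3 and lost without each other library (0.050 to 0.087). Amacr, a racemase for branched chains, fell from 8.81 ± 0.70 to 4.09 ± 0.59 TPM (-0.95, adjusted p = 0.0064). Abcd2 (0.75, adjusted p = 0.076) and Crot (-0.36, 0.087) did not pass. Among 17 regulators 2 fell (11.8%, against 5.03% of all genes). Ppargc1b, a coactivator of genes for mitochondria, went from 16.2 ± 1.35 to 7.44 ± 1.52 TPM (-1.04, adjusted p = 0.0059), and Nr1h3, the liver X receptor α, from 26.1 ± 0.75 to 19.6 ± 1.27 TPM (-0.39, adjusted p = 0.047; 0.065 after median-ratio scaling, and kept only without Visomitin 1 among the 6 fits that left out a library). Esrra (-0.28, adjusted p = 0.16) and Klf4 (0.35, 0.21) did not pass. Ppargc1a was listed at 0 in every library, and Ppara reached at most 0.49 TPM.

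**Figure D5:**
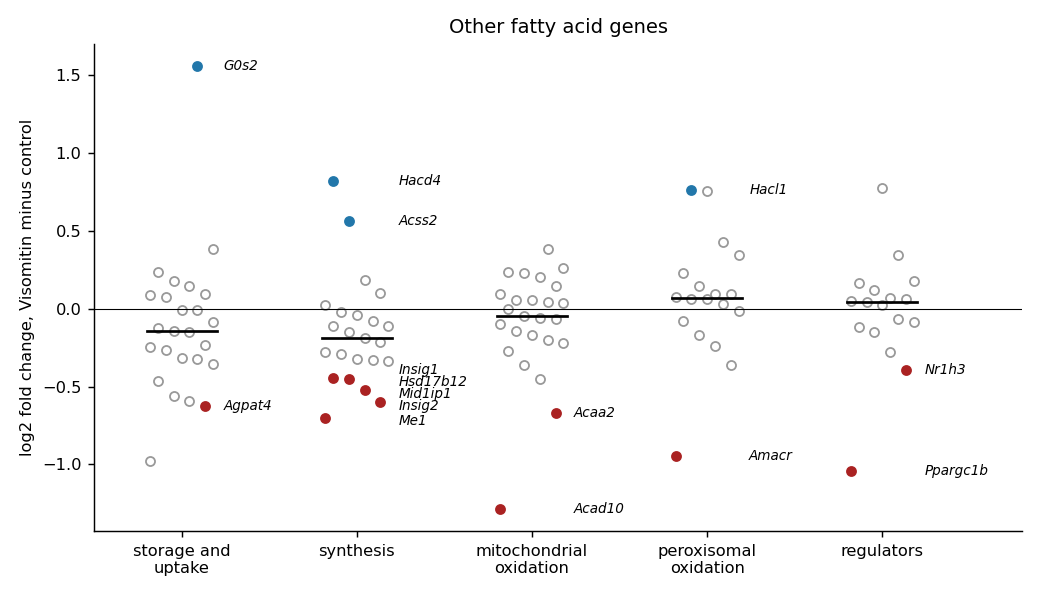
Log2 fold change (Visomitin minus control) of the 108 other fatty acid genes tested, 1 point per gene in 5 groups, with a black bar at each group's median. Filled points passed limma at an adjusted p of 0.05 (red lower, blue higher) and carry their symbol. Acad10 (-1.29) lies lowest and G0s2 (1.56) highest, and G0s2 reached the filter only through the Visomitin libraries, where it is high.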

How the data were processed

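RNA libraries (stranded mRNA preparation, per the labels) were made by the authors from 3 control and 3 Visomitin samples. The submitters' processing notes name fastp, HISAT2 and StringTie. No source used here gives versions, build, annotation or use of strand. Per-gene TPM values were deposited by the authors, and were used without further scaling.

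Symbols from GENCODE M21 or RefSeq synonyms matched all 39 members. Genes reaching 1 TPM in 3 or more libraries, 11753 in all, were fitted as log2(TPM + 1) with limma 3.58.1 (trend; R 4.3.3) and no covariate, two-sided, with Benjamini-Hochberg adjustment over all of them. Ratios within libraries were tested by exact permutation. At most 0.391% of genes had identical values in any pair of libraries. The fit was tested on simulated data.

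Members and lists were chosen with earlier results of these data known, so they give no independent support. Named are all members, in full those that passed or averaged at least 100 TPM, and from each list of other genes up to 4 with the lowest p-values. Others are named after their values were seen. Alternatives numbered 15: pseudocounts, filters, scalings, the trend, array weights, the library number as a block, and each library left out.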

Additional observations from a re-analysis of the deposited data

How the results depend on the processing

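Of the alternatives, pseudocounts of 0.1 and 5 left all 4 members that fell past the threshold. With no filter on low values 0 members fell (0 in uptake and storage, 0 in synthesis, 0 in oxidation), 6 other fatty acid genes fell and 1 rose, 381 of all genes passed, and the uptake and storage median log2 fold change, now with Dgat2, was -0.0452. With a filter of 5 TPM on the mean 2 uptake and storage genes fell. Without the trend 1 member fell, 0 in synthesis and 0 in oxidation. With array weights 11 members fell and 3 rose, 3 fell in uptake and storage and 4 in oxidation, 25 other genes fell and 17 rose, and 2835 of all genes passed. After median-ratio scaling 1 member rose, the uptake and storage median was -0.11, and the oxidation median log2 fold change -0.0736. After quantile normalization 1 rose, and these were -0.10 and -0.0762. Of the calls over all genes 70.8% were lower in the main fit, 58.9% and 53.8% after these scalings and 55.4% with array weights. The cause of these shifts was not tested.

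With the replicate block, 6 members fell, 2 in uptake and storage and 2 in synthesis, where Cd36 (adjusted p = 0.025) and Fasn (0.037) joined, and 1107 genes passed against 835. Of the other genes named, Abcd2 (0.043) and Angptl4 (0.037) also passed with it and Nr1h3 (0.059) did not. For Angptl4 the limit set by the filter, given above, holds here too. The labels state no pairing, and residual correlations within a number were 0.05, 0.02 and 0.17. With 1 library left out, members that fell ranged from 0 to 5, and those that rose stayed at 0. Those in uptake and storage ranged from 0 to 2, in synthesis from 0 to 1 and in oxidation from 0 to 2; other genes that fell ranged from 6 to 9 and rose from 1 to 4, and all genes from 309 to 981. The uptake and storage median log2 fold change ranged from -0.17 to -0.0161, the synthesis median log2 fold change from -0.32 to -0.12 and the oxidation median log2 fold change from -0.16 to -0.0868. Fits on 5 libraries leave less information on the spread.

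Signs turned for members near 0. Quantile normalization gave 0.017 for Fabp5, 0.032 for Dgat1 and 0.0034 for Cpt2, median-ratio scaling 0.013 for Dgat1, and array weights 0.030 for Dgat1, 0.15 for Acaca and 0.039 for Cpt1a. With a library left out, Fabp5 ranged from -0.10 to 0.0022, Dgat1 from -0.076 to 0.061, Acaca from -0.18 to 0.14, Elovl6 from -0.12 to 0.075, Cpt1a from -0.19 to 0.052 and Cpt2 from -0.12 to 0.021. Depth is unknown, so precision rests on the number of libraries.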
